A study of Homo sapiens with 3 samples.

Results

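Glucose metabolism was described across 43 genes of glycolysis, gluconeogenesis, the pentose phosphate pathway and glucose or lactate transport. A gene counted as measured where a probe carried a RefSeq accession that maps to its symbol. Of the 43 listed, 42 were found in this way among the 19736 genes named on the array, with 51 probes, and ALDOA was not analysed here. The Huh7 line, an established human hepatoma culture, was left without treatment or kept for 24 h with 50 or 100 μM of CA, which is chlorogenic acid, a polyphenol of plants studied as an inducer of tumor cell differentiation. CA was dissolved in DMSO, and the methods of the study name DMSO as the vehicle reference that stands for the untreated control. The labels of the arrays do not themselves tell whether the untreated cells received DMSO or were kept for the same time. The labels give no genetic modification, and all groups grew in DMEM with fetal calf serum. RNA was taken after the cells had been trypsinized. Total RNA was labelled with Cy3 and hybridised to 1 Agilent array for each of the groups untreated, CA 50 μM and CA 100 μM. With 1 array per group, no difference given here has a replicate check and no test across samples was made. Both doses were set against the same untreated array.

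Glycolysis splits glucose into pyruvate, and tumor cells often turn much of that pyruvate into lactate and export it. Gluconeogenesis runs in the opposite direction in liver and ends in the endoplasmic reticulum, where a transporter (SLC37A4) brings glucose-6-phosphate to the phosphatase that releases glucose. The pentose phosphate pathway branches off from glucose-6-phosphate and yields NADPH and ribose. CA is known as an inhibitor of the SLC37A4 transporter protein, and the arrays measure its mRNA, not its activity.

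Levels are given as relative signal, the processed signal of a probe divided by the 75th percentile of its own array (1059, 1207 and 1249 intensity units), always in the order untreated, CA 50 μM, CA 100 μM. A log2 ratio is the difference of the log2 relative signals of 2 arrays. Between 70.4% and 71.1% of gene spots were well above background, a flag set by the scanner software, and a ratio was formed only where the probe carried it on both arrays. Among probes printed 10 times, the ratios of the spots of 1 probe at CA 50 μM had a median SD of 0.157 below 100 intensity units on the untreated array, 0.070 from 100 to 1000 units and 0.052 above, which covers error within an array only. On the CA 100 μM array 5.89% of gene spots lay in areas where dim probes read bright, against 0.107% and 0.0881% on the untreated and CA 50 μM arrays. Of the hepatocyte and hepatoma markers, 15 of 18 were above background on all arrays, among them ALB, AFP and GPC3, and CYP3A4 was above it on none. Probes of 6 of 6 leukocyte, 3 of 5 endothelial and 5 of 7 fibroblast and stellate markers were also above background on all arrays, and the part of other cells in the values was not tested.

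The promoters of SLC37A4 and of the 4 genes furthest from the untreated level at CA 50 μM are shown first, since the values below turn on these genes. Each is the window of 300 bases listed first for the gene in RefSeq (GRCh38.p14), from 250 bases before the start to 50 after it, written 5′ to 3′ along the gene. Capitals mark matches on either strand to CACGTG, the core bound by MYC and the glucose sensor ChREBP, to ACGTG or to GCGTG. The last of these and ACGTG, which every CACGTG contains, are both forms of the core of the hypoxia response element.
G6PC3, chr17:44070423-44070722 (plus strand): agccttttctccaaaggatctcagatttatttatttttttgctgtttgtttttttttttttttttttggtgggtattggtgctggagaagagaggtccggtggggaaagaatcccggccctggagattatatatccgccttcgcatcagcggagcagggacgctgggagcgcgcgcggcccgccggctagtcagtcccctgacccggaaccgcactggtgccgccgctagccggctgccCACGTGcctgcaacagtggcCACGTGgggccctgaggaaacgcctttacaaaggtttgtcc
SLC37A4, chr11:119030828-119031127 (minus strand): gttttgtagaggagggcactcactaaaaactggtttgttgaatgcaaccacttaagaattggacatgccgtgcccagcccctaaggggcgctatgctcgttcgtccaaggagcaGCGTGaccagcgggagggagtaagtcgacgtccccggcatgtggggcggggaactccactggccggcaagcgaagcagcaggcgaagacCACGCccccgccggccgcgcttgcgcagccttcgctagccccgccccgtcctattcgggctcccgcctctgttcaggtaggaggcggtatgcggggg
PFKL, chr21:44299803-44300102 (plus strand): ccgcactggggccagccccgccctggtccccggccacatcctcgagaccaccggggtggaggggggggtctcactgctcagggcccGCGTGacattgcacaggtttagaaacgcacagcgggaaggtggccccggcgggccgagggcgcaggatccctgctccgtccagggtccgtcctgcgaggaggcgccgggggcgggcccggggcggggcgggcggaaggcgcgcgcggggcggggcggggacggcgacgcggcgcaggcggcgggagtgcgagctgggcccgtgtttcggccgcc
PFKP, chr10:3067720-3068019 (plus strand): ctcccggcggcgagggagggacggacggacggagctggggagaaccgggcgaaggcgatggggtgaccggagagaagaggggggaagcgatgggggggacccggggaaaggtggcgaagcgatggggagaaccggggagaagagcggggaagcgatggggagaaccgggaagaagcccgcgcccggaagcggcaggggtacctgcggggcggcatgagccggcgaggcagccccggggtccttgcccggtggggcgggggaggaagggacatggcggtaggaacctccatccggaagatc
LDHB, chr12:21657793-21658092 (minus strand): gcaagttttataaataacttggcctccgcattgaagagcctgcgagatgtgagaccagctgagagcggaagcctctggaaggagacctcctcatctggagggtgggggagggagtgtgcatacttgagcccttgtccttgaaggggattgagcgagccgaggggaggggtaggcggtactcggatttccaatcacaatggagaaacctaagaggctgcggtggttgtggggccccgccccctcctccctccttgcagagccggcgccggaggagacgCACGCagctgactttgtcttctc
The G6PC3 window held CACGTG 2 times, the SLC37A4 window GCGTG 2 times, the PFKL and LDHB windows GCGTG 1 time each, and the PFKP window had no match, while among its 4 listed windows others held ACGTG and GCGTG. A window was found for 39 of the 43 genes, and not for PCK1, PFKFB2, SLC16A1 and SLC2A3. Over 35093 windows, with a whole chromosome and repeated windows left out, 7.3% held CACGTG, 21.4% ACGTG and 36.5% GCGTG. Of the 72 windows of the glucose metabolism genes, 15.3% held CACGTG, 34.7% ACGTG and 34.7% GCGTG, and several windows can overlap within a gene. By gene, 9 had a window with CACGTG, namely ALDOA, ALDOC, G6PC3, GAPDH, HK2, LDHA, PDHB, PFKFB3 and PKLR. A match is a stretch of letters and says nothing on binding in these cells.

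After CA 50 μM, most glucose metabolism genes stayed within 1.5-fold of the untreated array. G6PC3 and the liver phosphofructokinase gene PFKL were higher, LDHB and the platelet phosphofructokinase gene PFKP were lower, and SLC37A4 was moderately higher at both doses. The 5 transporter genes for uptake of glucose or export of lactate had ratios below 0 at both doses, none past 1.5-fold, and SLC16A1 at CA 100 μM was 0.0005 with another background correction. Of all genes, 45.4% were below 0 at both doses. The genes of the fructose 2,6-bisphosphate enzymes also read lower by their brighter probes, apart from PFKFB1 at CA 50 μM. PFKFB3 was above 0 under 3 alternatives at CA 100 μM and, as the mean over its probes, at CA 50 μM (0.11). After CA 100 μM the ratios were mostly smaller, and ENO2 and LDHB were the genes that read at least 1.5-fold lower.

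Ratios to untreated could be formed for 41 of the 43 genes at both doses. At CA 50 μM, 2 of the 41 (G6PC3 and PFKL) were at least 1.5-fold higher, and 4.15% of all 14697 genes measured were. In the same comparison 2 genes (LDHB and PFKP) were at least 1.5-fold lower, against 2.17% of all genes. The same 2 were at least 2-fold lower, against 0.517% of all genes, and 0 were at least 2-fold higher, against 0.463%. At CA 100 μM, 1 gene (PFKP, by 1 of its 2 probes) was at least 1.5-fold higher, against 1.65% of all 14637 genes. ENO2 and LDHB, the latter by its brighter probe alone, were at least 1.5-fold lower, which 1.54% of all genes were. With normexp ENO2 had -0.56, inside 1.5-fold, and with the mean over probes LDHB had -0.38. None of the 41 passed 2-fold at CA 100 μM, while 0.458% of all genes were 2-fold higher and 0.205% 2-fold lower. A count of 2 among 41 genes is 4.88%, which lay near the background for genes 1.5-fold higher at CA 50 μM and above it for genes 1.5-fold lower at both doses and 2-fold lower at CA 50 μM, though each count is of 2 genes. With normexp, another background correction, 0 genes were 2-fold lower at CA 50 μM, as PFKP had -0.92 and LDHB -0.98.

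After CA 50 μM the median log2 ratio of the 41 genes was -0.11, with 15 above 0 and 26 below. After CA 100 μM it was -0.06, with 12 above and 29 below. Over all genes the medians were -0.04 and -0.03. Bright probes read lower in general on the CA arrays, with medians of -0.11 and -0.06 in the brightest 25% of genes. These held 22 of the 41, and their medians were -0.12 and -0.06. For these 22 genes the median thus lay close to that of the brightest 25%. Of the 22, 68.2% were below 0 at CA 50 μM and 81.8% at CA 100 μM, against 72.0% and 69.8% of the brightest 25%. Whether the dimmer genes of the set lay close to genes of like signal was not tested. Every gene of the set past 1.5-fold at either dose lay outside the brightest 25%.

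**Figure D1:**
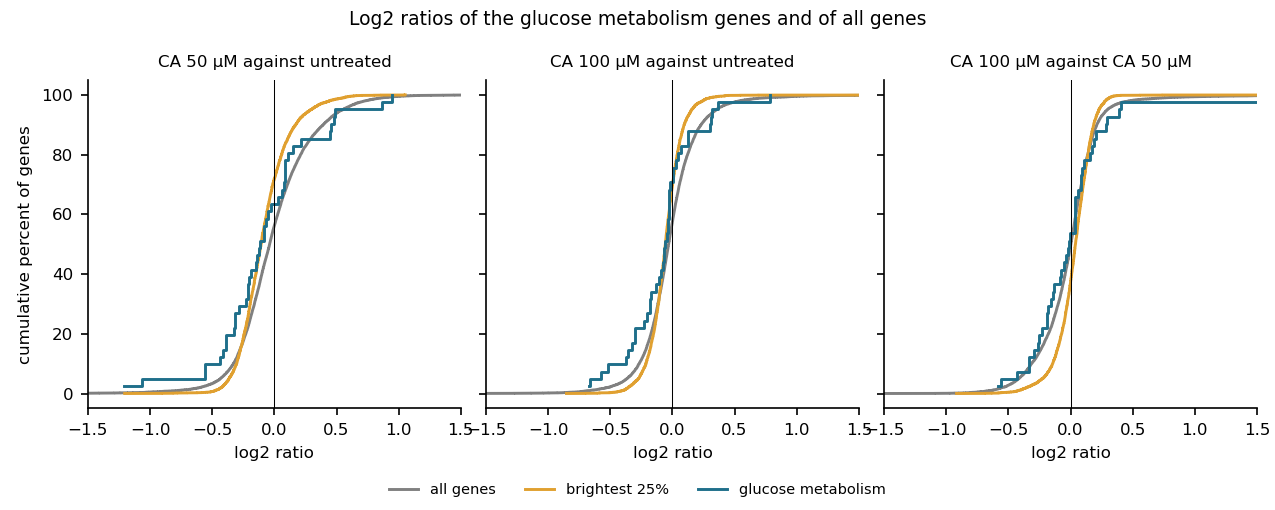
Cumulative percent of genes (vertical axis) at or below each log2 ratio (horizontal axis) in the 3 comparisons, for all genes measured, for the brightest 25% of them and for the 41 glucose metabolism genes. The blue curve follows the brightest 25% near its middle and leaves it at the lower end, where LDHB and PFKP lie at CA 50 μM; the last gene in the right panel, PFKP at 2.43, is beyond the axis.

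Transport into and out of the cell and into the endoplasmic reticulum came first. SLC37A4, the glucose-6-phosphate transporter, had relative signals of 0.749, 1.05 and 0.923, which are log2 ratios of 0.49 and 0.30 to untreated. It was the only 1 of 6 transporter genes above 0 at either dose, and both doses read above untreated with CA 50 μM the higher. SLC16A3, the lactate exporter MCT4, read 10.7, 8.06 and 8.28, or -0.41 and -0.37. SLC2A1, the glucose transporter GLUT1, read 5.10, 3.89 and 4.15, or -0.39 and -0.30. Both CA arrays were below untreated for these genes and close to each other. SLC2A3, the glucose transporter GLUT3, had ratios of -0.29 and -0.33, and its dimmer probe gave -0.40 and -0.20. SLC16A1, the lactate transporter MCT1, had ratios of -0.21 and -0.03. SLC2A2, the liver glucose transporter GLUT2, read 0.0795, 0.0752 and 0.0771, or -0.08 and -0.04, within the spot error of dim probes. The medians of the 6 genes were -0.25 and -0.17.

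G6PC3, the ubiquitous catalytic subunit of glucose-6-phosphatase, works on the substrate that SLC37A4 carries. Its relative signal was 0.0544 untreated, 0.105 at CA 50 μM and 0.0700 at CA 100 μM, which are log2 ratios of 0.94 and 0.36 against untreated. The CA 50 μM array stood apart from the others, at 57.6, 126 and 87.4 intensity units, and with another background correction (normexp) the ratios were 0.50 and 0.08. PFKL, whose product commits fructose-6-phosphate to glycolysis, had the same order, with 0.0899, 0.164 and 0.111, or 0.87 and 0.31. Both were dim probes of 1 spot. At CA 100 μM the ratios of 0.36 and 0.31 lay above 0.164, the median spot SD of such probes. They lay under 0.387, the 95th percentile of that SD over probes, which is not a limit on a ratio. PFKM, the muscle form, was flat at -0.11 and -0.03. G6PC1, another catalytic subunit of glucose-6-phosphatase and not among the 43 genes, went the other way from G6PC3. It read 0.0452, 0.0351 and 0.0394, or -0.36 and -0.20, from a dim probe with its CA 100 μM spot in a disturbed area.

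PFKP, the platelet form of phosphofructokinase, had probes that agreed at CA 50 μM and parted at CA 100 μM. The first probe read 0.233, 0.101 and 0.203, or log2 ratios of -1.21 and -0.20. The second read 0.211, 0.0673 and 0.363, or -1.65 and 0.78. Both were lowest at CA 50 μM, but only the second exceeded untreated at CA 100 μM. Between the doses, CA 100 μM was higher by 1.01 and 2.43. The brighter probe of each comparison represents a gene, so the first stands for PFKP at CA 50 μM and the second in the comparisons with CA 100 μM.

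Hexokinases trap glucose in the cell by phosphorylating it. HK2, the form common in tumors, read 4.12, 3.98 and 4.07 with its bright probe, or -0.05 and -0.02, the smallest ratio of its group at CA 50 μM. Its dim probe read 0.0217, 0.0331 and 0.0258, or 0.61 and 0.25. HK1 was not well above background untreated or at CA 50 μM (4.98 and 5.68 intensity units) and was above it at CA 100 μM (42.1 units). That is at least 2.92-fold higher than untreated and at least 3.24-fold higher than CA 50 μM, from 1 spot. This HK1 spot was in no disturbed area, and 0 of 32 other dim spots around it were bright on that array alone. How often a probe is above background on the CA 100 μM array alone was not tested. COL1A1, a fibroblast marker, read 2.615, 3.271 and 51.68 intensity units and was also above background on 1 array. Against untreated, 67 genes passed 2-fold upward at CA 100 μM, 61 of them in the dimmest 25%. Downward, 30 genes passed it, 25 of them in that part. GCKR, which codes for the regulator that holds glucokinase in the nucleus, was printed 10 times and gave 0.09 (SD 0.093 over the 9 spots without an outlier flag) and 0.00 (SD 0.093, also 9 spots). GPI, the isomerase after hexokinase, read -0.19 and -0.21. ALDOC, an aldolase, gave 0.08 and -0.18 and TPI1, triosephosphate isomerase, 0.11 and -0.08, with the CA 100 μM spot of ALDOC in a disturbed area.

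The PFKFB genes code for enzymes that make and break fructose 2,6-bisphosphate, the activator of phosphofructokinase. PFKFB2 read 0.955, 0.648 and 0.746 with its brighter probe, or -0.56 and -0.36, and 0.203, 0.202 and 0.187 with the other, or -0.01 and -0.12. PFKFB4 read 0.889, 0.761 and 0.621, or -0.23 and -0.52, so that CA 100 μM was lowest. PFKFB3 differed by probe. The bright one read 6.21, 5.60 and 6.05, or -0.15 and -0.04, and the dim one 0.0337, 0.0434 and 0.0617, or 0.37 and 0.88, its CA 100 μM spot being in a disturbed area. PFKFB1, the liver form, read 0.0404, 0.0412 and 0.0327, or 0.03 and -0.30. The medians of the 4 were -0.19 and -0.33.

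**Figure D2:**
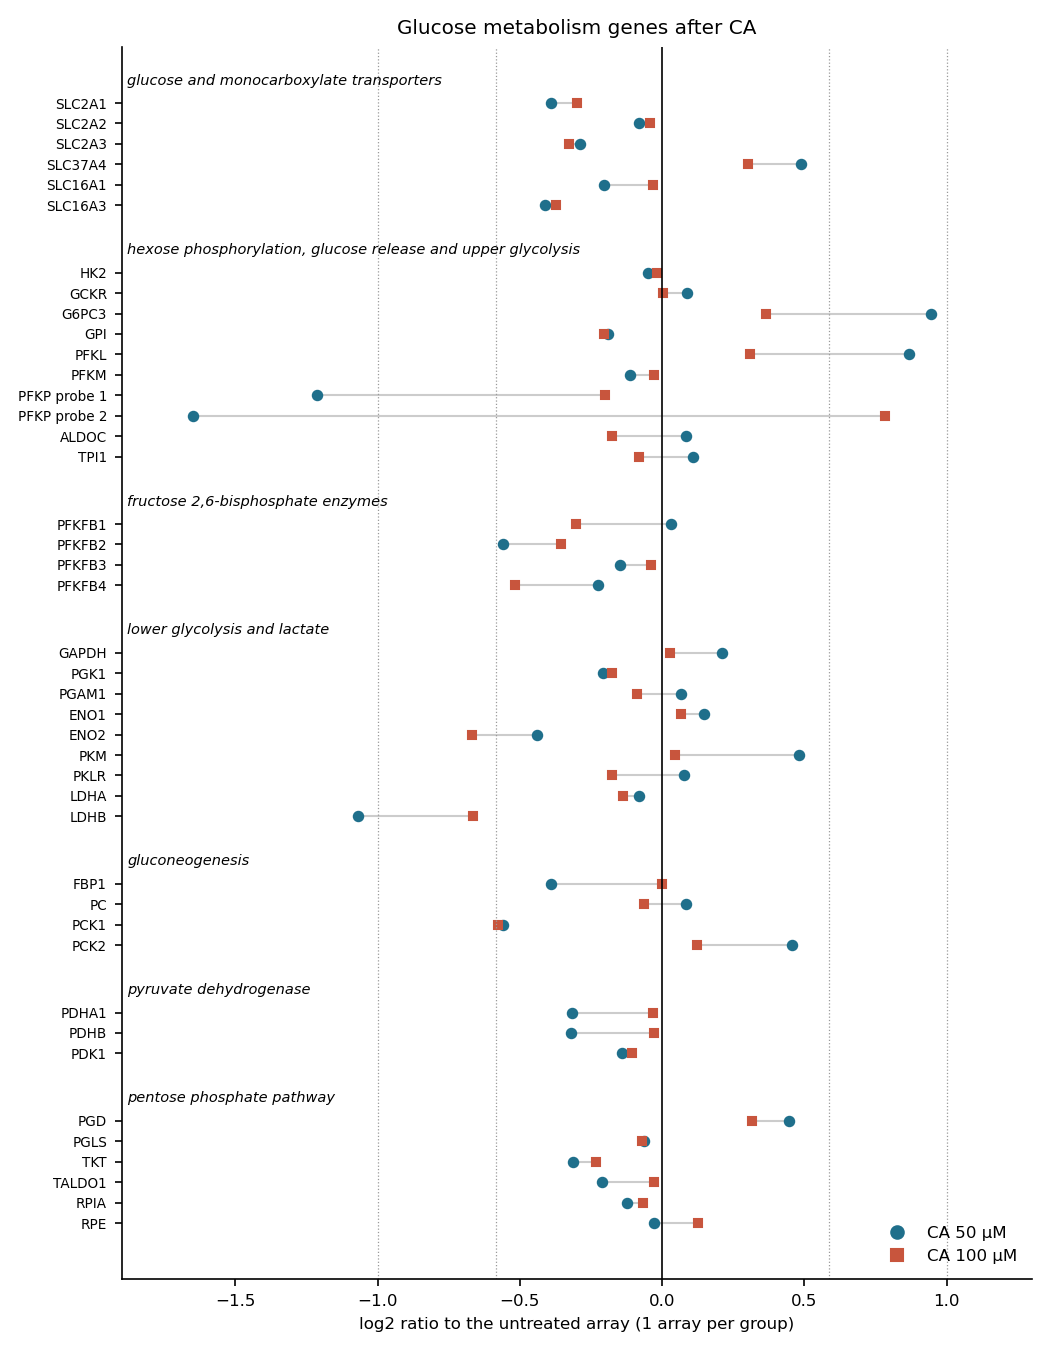
Log2 ratio to the untreated array (horizontal axis) of each glucose metabolism gene at CA 50 μM (circles) and CA 100 μM (squares), grouped by role, with both probes of PFKP and 1 probe of every other gene; dotted lines mark 1.5-fold and 2-fold. G6PC3 and PFKL lie past 1.5-fold on the right at CA 50 μM, LDHB and both PFKP probes lie past 2-fold on the left, and most squares lie nearer to 0 than the circles.

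From glyceraldehyde phosphate to lactate, LDHB stood apart. LDHB, the heart-type lactate dehydrogenase subunit, read 1.21, 0.574 and 0.760 with its brighter probe, or -1.07 and -0.66. The other probe read 0.324, 0.0859 and 0.301, or -1.91 and -0.10. Both probes were lowest at CA 50 μM, while at CA 100 μM the brighter stayed below untreated and the other was near it. LDHA, the muscle-type subunit, read 40.2, 38.0 and 36.5, or -0.08 and -0.14, and its second probe gave -0.01 and -0.02. ENO2, the neuronal enolase, read 0.555, 0.409 and 0.349, or -0.44 and -0.67, which with LDHB was the lowest ratio at CA 100 μM among all 41. ENO1, the enolase of most tissues, gave 0.15 and 0.07.

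PKM, the pyruvate kinase of tumors, read 17.7, 24.7 and 18.2, or 0.48 and 0.04, highest at CA 50 μM. PKLR, the liver pyruvate kinase, read 0.0494, 0.0521 and 0.0437, or 0.08 and -0.18. GAPDH and PGK1, which catalyse consecutive steps, were printed 10 times each and lay on opposite sides of untreated at CA 50 μM. GAPDH read 37.2, 43.0 and 37.9, or 0.21 (SD 0.049 over 8 spots) and 0.03 (SD 0.056, also 8 spots). PGK1 read 28.4, 24.5 and 25.1, or -0.21 (SD 0.038 over 10 spots) and -0.18 (SD 0.039, also 10 spots). PGAM1, phosphoglycerate mutase, read 20.9, 21.9 and 19.7, or 0.06 and -0.09, the smallest ratio of its group at CA 50 μM, with 0.44 and 0.23 at its second probe. The CA 100 μM spot of the brighter PGAM1 probe lay in a disturbed area. The medians of the 9 genes were 0.06 and -0.14.

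**Figure D3:**
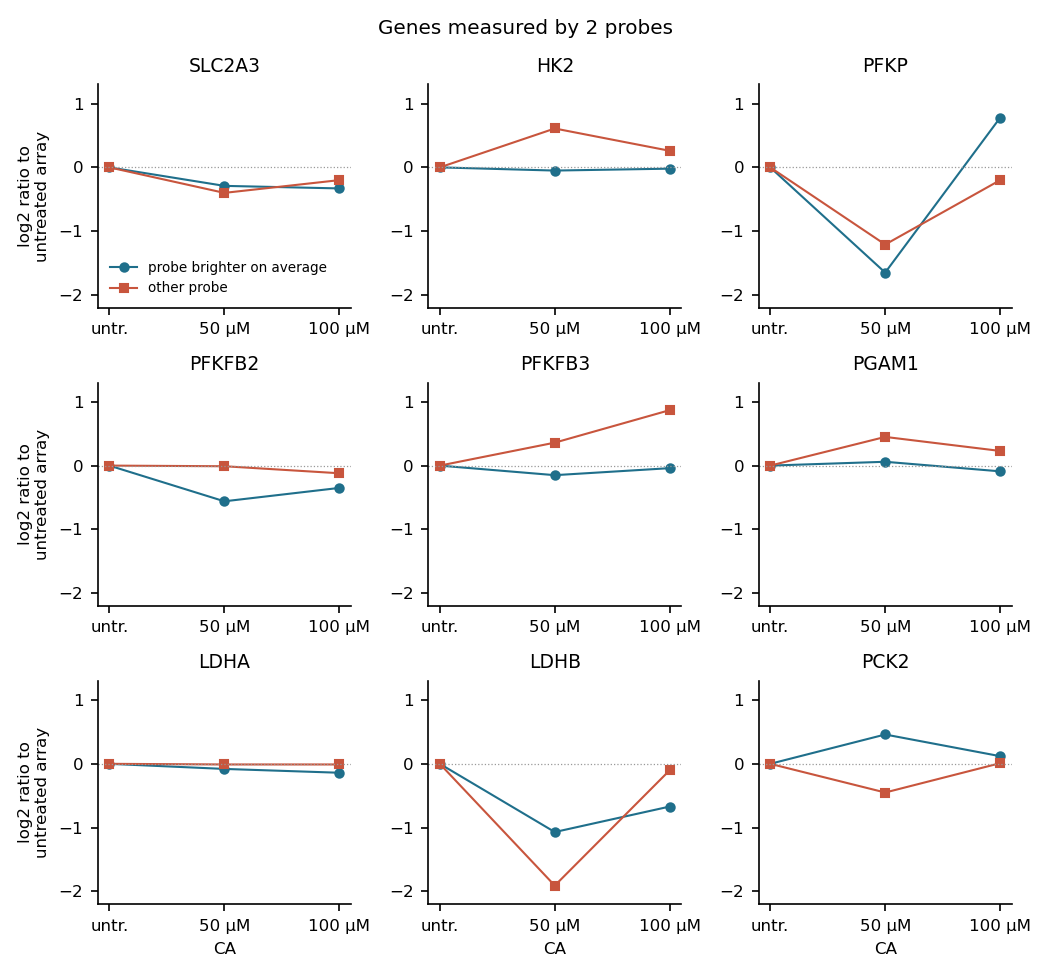
Log2 ratio to the untreated array (vertical axis) on the 3 arrays (horizontal axis) for the 9 genes with 2 probes; the untreated value is 0 by construction. Both probes of PFKP and of LDHB dip at CA 50 μM and part at CA 100 μM, those of PCK2 go to opposite sides at CA 50 μM, and those of SLC2A3 and LDHA run close together.

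Of the 9 genes with 2 probes, the ratios shared their sign for 6 at CA 50 μM and for 5 at CA 100 μM, and they differed by over 0.5 for 5 and 3 genes. For these 5 and 3 genes the probes lay further apart than most ratios of the set lay from 0.

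Gluconeogenesis did not read in 1 direction. PCK1, the cytosolic phosphoenolpyruvate carboxykinase and a rate-setting step in liver, read 0.353, 0.240 and 0.237, or -0.56 and -0.58, just short of 1.5-fold at both doses. PCK2, the mitochondrial form, read 0.381, 0.523 and 0.416 with 1 probe, or 0.46 and 0.12. Its other probe read 0.312, 0.228 and 0.313, or -0.45 and 0.01, with the CA 100 μM spot in a disturbed area. The probes of PCK2 thus disagreed in sign at CA 50 μM. FBP1, fructose bisphosphatase, read 0.445, 0.339 and 0.445, or -0.39 and 0.00, and PC, pyruvate carboxylase, read 2.83, 3.0 and 2.71, or 0.08 and -0.06.

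Pyruvate dehydrogenase passes pyruvate on to the mitochondrial cycle. Its subunit genes PDHA1 and PDHB had nearly the same pattern, 9.65, 7.75 and 9.45 for PDHA1 (-0.32 and -0.03) and 2.94, 2.35 and 2.88 for PDHB (-0.32 and -0.03). Only the CA 50 μM array stood below the others for these 2 genes. PDK1, the kinase that switches the complex off, read 3.86, 3.50 and 3.58, or -0.14 and -0.11.

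In the pentose phosphate pathway, PGD, the gene of the NADPH-forming 6-phosphogluconate dehydrogenase, read higher at both doses, with 7.30, 9.95 and 9.09, or 0.45 and 0.32. TKT, the transketolase that returns pentoses to glycolysis, read 2.95, 2.38 and 2.52, or -0.31 and -0.23. RPE, the ribulose phosphate epimerase, read 1.11, 1.09 and 1.21, or -0.03 and 0.13. TALDO1, transaldolase, had -0.21 and -0.03, RPIA, the ribose phosphate isomerase, -0.12 and -0.07, and PGLS, the lactonase before PGD, -0.06 and -0.07. PGD was the only 1 of the 6 above 0 at CA 50 μM.

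Doses were set side by side for the 40 genes represented by the same probe throughout. For 25 of them (62.5%) CA 100 μM was intermediate, with untreated and CA 50 μM on either side, for 13 (32.5%) it was lowest and for 2 (5.0%) highest. Over all 14491 such genes the shares were 53.7%, 26.7% and 19.6%. Against CA 50 μM, CA 100 μM was at least 1.5-fold and at least 2-fold higher for 1 of 41 (PFKP), against 1.4% and 0.587% of all 14663 genes. None of the 41 was 1.5-fold or 2-fold lower, against 1.54% and 0.0887%. The dim LDHB probe also gave 1.81 between the doses, and the brighter 0.40.

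Genes of the same pathways that are not among the 43 were taken from lists and read in the same way. Of 38 other glycolysis and pyruvate genes, 4 were at least 1.5-fold higher and 3 lower at CA 50 μM, against 4.15% and 2.17% of all genes. At CA 100 μM 0 were higher and 3 lower, against 1.65% and 1.54%, and the medians were -0.10 and -0.07. The dimmest 25% of genes held 13 of the 38, and there such changes were more frequent. Of its 3674 genes at CA 50 μM, 280 were 1.5-fold higher and 203 lower, and of its 3659 at CA 100 μM, 191 and 175. BSG, the chaperone that brings the lactate transporters to the cell surface, read 3.28, 6.40 and 3.39, or 0.96 and 0.04, high on the CA 50 μM array alone. SLC2A9, a urate and glucose transporter, read 0.0474, 0.0282 and 0.0243, or -0.75 and -0.96. SLC2A12, another sugar transporter, had -0.51 and -0.80. SLC2A5, the fructose transporter, had 0.78 and 0.53, with its CA 100 μM spot in a disturbed area. The probes of SLC2A9, SLC2A12 and SLC2A5 were dim, at 50.2, 36.45 and 57.39 intensity units untreated.

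Among 11 other pentose phosphate and NADPH genes the medians were -0.02 and -0.05, and 0 passed 1.5-fold at either dose. Of all genes, 4.15% were 1.5-fold higher and 2.17% lower at CA 50 μM, and 1.65% and 1.54% at CA 100 μM. H6PD, an enzyme of the endoplasmic reticulum that forms NADPH there, read 0.167, 0.211 and 0.196, or 0.33 and 0.23. The isocitrate dehydrogenase genes IDH2 and IDH1 gave 0.37 and 0.23 and -0.20 and -0.20, and ME3, a malic enzyme, gave -0.27 and -0.08. Among 16 other gluconeogenesis genes the medians were -0.04 and -0.04. PPARGC1A, a coactivator of the fasting program, read 0.284, 0.184 and 0.201, or -0.63 and -0.50. The mitochondrial carriers SLC25A1, which exports citrate, and SLC25A10, the dicarboxylate carrier, gave 0.67 and 0.32 and 0.60 and 0.21, and SLC25A12, the aspartate and glutamate carrier, gave -0.55 and -0.39.

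The hypoxia-inducible factor (HIF) drives many glycolytic genes, and 19 of its other known targets were read beside them. Of these, 17 were below 0 at CA 50 μM and 18 at CA 100 μM, with medians of -0.31 and -0.18. Of all genes 56.3% and 57.7% were below 0, and of the brightest 25%, which held 8 of the 19, 72.0% and 69.8%. Under the alternatives the median ranged from -0.36 to -0.25 and from -0.20 to -0.15. The list was chosen with earlier results of these data known, and both ratios share the untreated array. Whether HIF activity differed was not tested. VEGFA gave -0.28 and -0.13 at its brighter probe and 0.43 and -0.29 at the other. BNIP3L gave -0.48 and -0.20 at its brighter probe and -0.05 and 0.17 at the other. The other probes of INSIG2 and MXI1 were below 0 at both doses. At CA 100 μM, spots of ADM, P4HA2, DDIT4, LOX and ERO1A lay in disturbed areas. ANKRD37 read 0.875, 0.577 and 0.683, or -0.60 and -0.36, and was the only 1 of the 19 past 1.5-fold at CA 50 μM. ANGPTL4, a lipase inhibitor, gave -0.45 and -0.53, and DDIT4 (0.02 and -0.03) and BHLHE40 (0.00 and 0.05) had the highest ratios by the mean of both doses. For the 16 glucose and hypoxia regulators the medians were -0.21 and -0.09. MLXIP, a glucose-sensing factor, gave 0.49 and 0.54 at its brighter probe and 0.13 and 0.08 at the other, ARNT, the partner of HIF, 0.31 and 0.22, IRS2, an insulin receptor substrate, -0.39 and -0.34, and ESRRA -0.45 and -0.22, with 0.43 and 0.30 at its other probe.

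**Figure D4:**
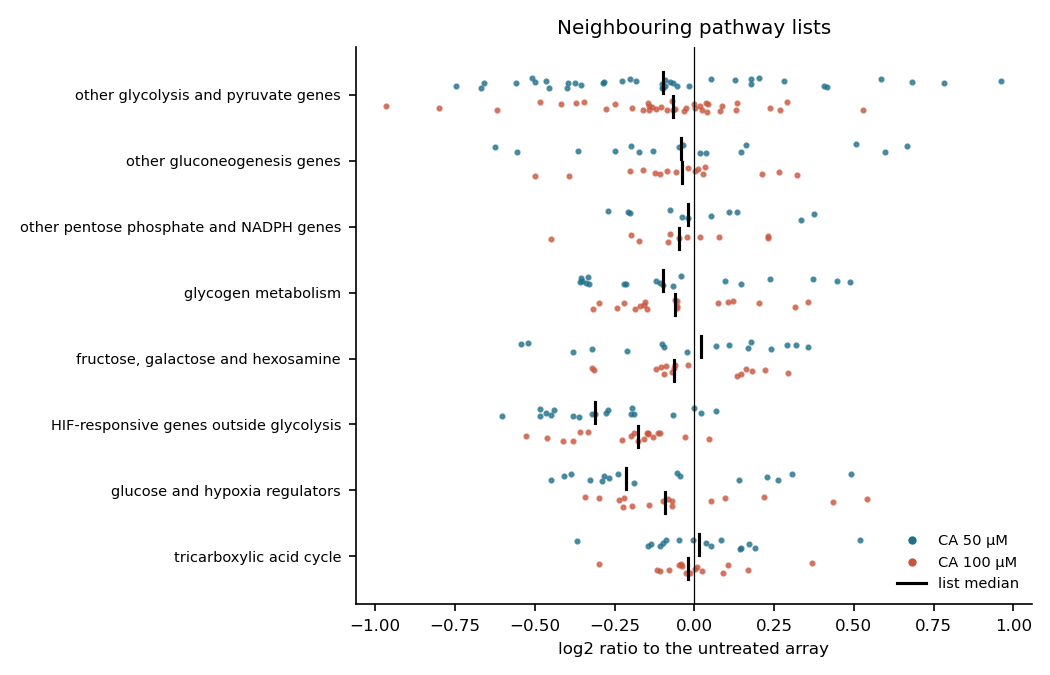
Log2 ratio to the untreated array (horizontal axis) of each gene of 8 neighbouring lists at CA 50 μM (blue) and CA 100 μM (red); black bars are list medians and vertical scatter within a row carries no meaning. The HIF-responsive row lies furthest to the left, with medians of -0.31 and -0.18, and BSG is the point furthest to the right, at 0.96.

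The ratios of the genes named most above were recomputed under 11 alternatives. SLC37A4 kept ratios of 0.44 to 0.49 and 0.28 to 0.33. PFKL at CA 50 μM ranged from 0.64 to 0.87, LDHB from -1.49 to -0.98 and PFKP from -1.43 to -0.92. At CA 100 μM, ENO2 ranged from -0.69 to -0.56 and LDHB from -0.68 to -0.38. The PFKP ratio at CA 100 μM was 0.29 as the mean of both probes, under 1.5-fold.

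**Figure D5:**
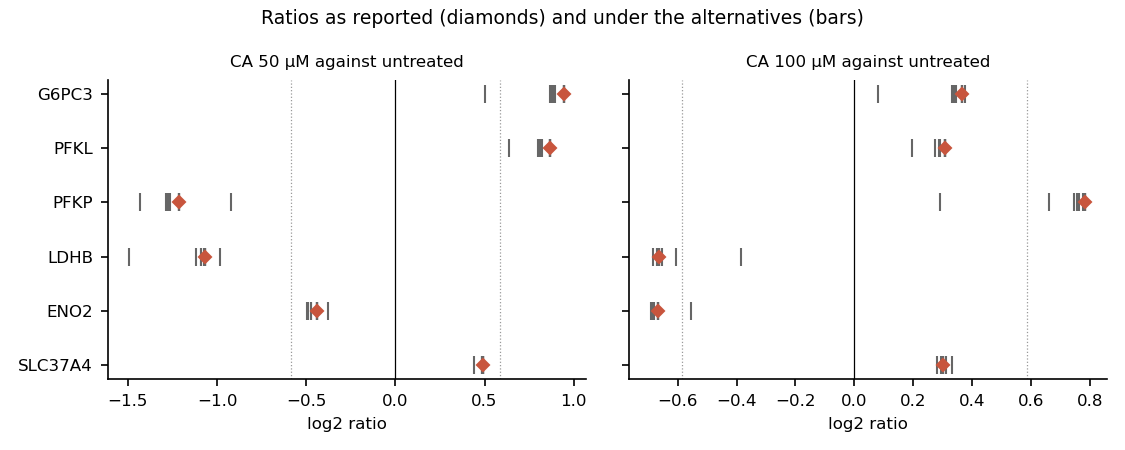
Log2 ratio (horizontal axis) of 6 glucose metabolism genes as reported (diamonds) and under each of 11 alternatives (bars), at CA 50 μM and CA 100 μM; dotted lines mark 1.5-fold. No gene shown changes side of 0 under these alternatives, and G6PC3 at CA 50 μM drops inside 1.5-fold, to 0.50, under 1 alternative. None of them sets PFKP at CA 100 μM by its first probe alone, which read -0.20.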

How the data were processed

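Total RNA of Huh7 cells was amplified, labelled with Cy3 and put by the authors on Agilent 4 x 44 K arrays, 1 per group, and all 3 arrays came from 1 slide scan, which gives no batch to fit. The authors ran Feature Extraction 11.0.1.1, per the labels, and the intensity values in the deposited spot files are background-subtracted and detrended within each array and not scaled between arrays. The log2 table that the authors deposited has equal quartiles in its columns, its normalization is not given in the sources used here, and it served as an alternative.

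Control spots and outlier spots (429, 569 and 596) were left out, the spots of probes printed 10 times were averaged, and log2 signals were reduced by the 75th percentile of the array. Accessions named 25767 of 34127 probes (75.5%), and the accession of ALDOA had no match. Of several probes above background, the brightest in the comparison stood for a gene. Changes were counted at 1.5-fold and 2-fold. A bound sets the brighter side against the lowest probe signal above background (12.2, 12.5 and 14.8 units). An area was called disturbed in windows of 17 rows by 7 columns where at least 5 and at least 25% of the spots of dim probes were at least 4-fold brighter on 1 array.

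The genes and lists were chosen with earlier results of these data known. Every gene of the set is given. Values on every array are given for SLC37A4, for genes past 1.5-fold, for genes whose probes differ by over 0.5 and for the 2 largest and the smallest ratios at CA 50 μM in each role. Of other lists, the 2 highest and 2 lowest by the mean of both ratios are named. G6PC1 and the HIF targets with another probe or a spot in a disturbed area are named as well.

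Alternatives were quantile normalization, cyclic loess, the median of measured probes, normexp with an offset of 50, the authors' table, a filter on 1 array, no filter, the mean over probes, and leaving out saturated spots, disturbed areas or spots with background flags. The steps were tested on simulated data. R 4.3.3 with limma 3.58.1, and Python 3.11.15 with pandas 2.3.3, numpy 2.4.6, matplotlib 3.10.9 and scipy 1.17.1, were used. Arrays of other cells and miRNA arrays were not analysed here, and some genes of the other lists are not reported here.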

Additional observations from a re-analysis of the deposited data

How the results depend on the processing

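Of 451 recomputed ratios of single genes at CA 50 μM, 15 changed sign, and of 450 at CA 100 μM, 41 did. The genes concerned were HK2, PFKFB1, PFKFB3, PKLR and LDHA at CA 50 μM, and SLC16A1, HK2, GCKR, PFKM, TPI1, PFKFB3, GAPDH, PGAM1, LDHA, FBP1, PDHA1, PDHB, PGLS and TALDO1 at CA 100 μM. A filter on 1 array, no filter and the mean over probes cannot move a measured gene with 1 probe. The arrays held 0, 0 and 1 saturated gene spots, so leaving these out could hardly move any. The counts of sign changes thus do not measure how stable the signs are. The median over the 41 genes kept its sign against untreated, at -0.16 to -0.05 for CA 50 μM and -0.08 to -0.02 for CA 100 μM. With normexp, 1 gene was 1.5-fold higher and 0 were 2-fold lower at CA 50 μM, 1 was 1.5-fold lower at CA 100 μM and 0 were 2-fold higher between the doses. Centring on the median of measured probes gave 4 genes 1.5-fold lower at CA 50 μM. A filter on 1 array and no filter, which add HK1, each gave 2 genes 1.5-fold and 1 gene 2-fold higher at CA 100 μM, and 2 and 2 between the doses. The mean over probes gave 0 higher and 1 lower at CA 100 μM by 1.5-fold, and 2 higher by 1.5-fold and 2 by 2-fold between the doses. Among the other lists at CA 50 μM, the median of fructose, galactose and hexosamine genes was 0.086 with the authors' table, that of glycogen genes -0.029, -0.0031 and -0.024 with quantile normalization, cyclic loess and the authors' table, and that of regulators -0.15 with cyclic loess and -0.052 with the mean over probes. At CA 100 μM, other gluconeogenesis genes had 0.029 with quantile normalization and 0.036 with the authors' table, glycogen genes -0.15 without a filter and regulators 0.034 with the mean over probes. Apart from the added gene, the cause of these shifts was not tested. No paired analysis was possible because each group has 1 array, and for the same reason no replicate could be left out. Dim probes limit the precision, with a median spot SD of 0.157 below 100 units.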

Other observations

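Other parts of carbohydrate metabolism were read in the same way. Of all genes, 4.15% were at least 1.5-fold higher and 2.17% lower at CA 50 μM, and 1.65% and 1.54% at CA 100 μM. At such shares a short list can hold 0. Of the glycogen genes, 21 were measured at CA 50 μM and 19 at CA 100 μM, with medians of -0.10 and -0.06 and 0 past 1.5-fold at either dose. PYGB, the brain form of glycogen phosphorylase, had log2 ratios of 0.49 and 0.32, and PHKG2, a subunit of the kinase that activates phosphorylase in liver, had 0.45 and 0.20. GYS2, the liver glycogen synthase, had -0.36 and -0.32, and UGP2, which makes the UDP-glucose it uses, had -0.34 and -0.30. The 16 genes of fructose, galactose and hexosamine metabolism had medians of 0.02 and -0.06, with 0 past 1.5-fold. PMM2, a phosphomannomutase, had 0.36 and 0.29 and SORD, sorbitol dehydrogenase, 0.29 and 0.18, while GNPNAT1 of the hexosamine route had -0.54 and -0.31 and TKFC, a triokinase, -0.38 and -0.32. The 16 genes of the tricarboxylic acid cycle had medians of 0.02 and -0.02. IDH3G and IDH3A, subunits of isocitrate dehydrogenase, had 0.52 and 0.37 and 0.19 and 0.17, CS, citrate synthase, had -0.37 and -0.11, and SDHC, of succinate dehydrogenase, had -0.15 and -0.04, with 1 of its other probes on the opposite side at 0.15 and 0.11.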
